A study of Homo sapiens with 24 samples.

Results

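The BAF and CHD chromatin remodeler transcripts ARID1A, ARID1B, ARID2, SMARCA2, SMARCA4, CHD2, CHD3, CHD4, CHD7 and CHD8 were described across 6 cell populations of human pancreatic differentiation. Members were the peaks whose gene field held the Ensembl identifier of one of the 10 genes. The rule found 425 of 228472 peaks, on 10 of 27200 genes with a peak in any list. Of these, 409 lay mainly on exons of the member itself. Another 15 lay on exons of NOP2, a gene next to CHD4 that the caller joined to it. A further CHD2 peak of A5-KO PP did not lie mainly on CHD2 exons. All of these were left out of the values below, except where peaks are said to be counted by the rule. The data were m6A-seq, in which fragments bearing N6-methyladenosine are pulled down by an antibody (IP) and sequenced beside fragments taken before the pull-down (input), from 24 libraries. Each population had 2 IP and 2 input libraries, and its peaks came as 1 list over all 4, so that no value below has a replicate error and no p-value is given. All populations came from the MEL1 human embryonic stem cell line, which carries GFP in one INS allele. The first batch held the undifferentiated pluripotent cells (hPSC), then endoderm of the definitive type (DE), progenitors of the pancreas (PP) and islet-like organoids (hILO), with mRNA and an antibody from SYSY. The second batch held wild-type PP (WT PP) and PP from cells with a CRISPR-Cpf1 knockout of the demethylase gene ALKBH5 (A5-KO PP), with total RNA, an antibody from Millipore and another library kit. Batch and preparation could not be told apart, so lists were compared within a batch, and the knockout was 1 line against 1 line.

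BAF complexes slide and evict nucleosomes with an ATPase, SMARCA4 (BRG1) or SMARCA2 (BRM). ARID1A and ARID1B are alternative subunits of canonical BAF, and ARID2 is a subunit of PBAF. CHD proteins are chromodomain ATPases: CHD3 and CHD4 drive the NuRD complex, which also deacetylates histones, CHD7 is the gene of CHARGE syndrome, CHD8 is a cause of autism, and CHD2 takes part in histone H3.3 deposition. m6A is written co-transcriptionally by METTL3 and METTL14, is removed by ALKBH5 and FTO, and is known to be dense in long internal exons and around stop codons.

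Of 19 sites listed in all 6 populations, 12 are shown by a DRACH pentamer (the m6A consensus, spelled out with the motif counts) inside the nucleotides under a peak in every list, so that the methylated context can be read. GGACT was taken first, then another GGAC form, then any DRACH, and among equals the one nearest the middle. The 4 sites of CHD7 are not shown, and 3 sites of ARID1B, CHD4 and CHD8 held no DRACH in those nucleotides. Each line is the sense strand in DNA letters, with the pentamer in capitals, from the GRCh38 genome at the exons of the MANE Select isoform.
ARID1A, exon 20, coding, chr1:26780149-26780169, plus strand: tcctggacGGACTcctacact
ARID1B, exon 4, coding, chr6:156935551-156935571, plus strand: agcaagaaAGACCatcaagtt
ARID1B, exon 20, coding, chr6:157207175-157207195, plus strand: tggtggtgGGACTgcctcgag
ARID2, exon 15, coding, chr12:45850214-45850234, plus strand: tgctccagTGACTgtcattca
ARID2, exon 15, coding, chr12:45851612-45851632, plus strand: tttccaagGGACTtctggcaa
ARID2, exon 21, 3′ UTR, chr12:45905096-45905116, plus strand: acagtgggGGACTcaaagtca
CHD2, exon 33, coding, chr15:93002270-93002290, plus strand: aaagaaggGGACAaggaaaga
CHD3, exon 3, coding, chr17:7890690-7890710, plus strand: ggagaagaAGACAaagcggcg
CHD4, exon 35, coding, chr12:6578473-6578493, minus strand: acccccaaGGACCtgaatgat
CHD8, exon 4, coding, chr14:21427881-21427901, minus strand: tgcctccaAAACAaagggcaa
CHD8, exon 32, coding, chr14:21393564-21393584, minus strand: tctgagctGGACTtgagcaag
SMARCA2, exon 28, coding, chr9:2161819-2161839, plus strand: ccgctgagAAACTgtcaccaa
These sites were picked by their letters within peaks, and the data do not place the methylated base inside a peak. In exon 20 of ARID1A the nucleotides shared by the 6 lists, in separate pieces, summed to 1650 nt and held 47 DRACH sites, of which 17 began with GGAC. In exon 20 of ARID1B such pieces summed to 1500 nt with 27 sites, 5 of them GGAC, and in exon 35 of CHD4 to 121 nt with 5 sites. No GGAC form was in the shared nucleotides of 5 of the 12 sites, those in ARID1B exon 4, CHD3, CHD8 exon 4, SMARCA2 and the first ARID2 site of exon 15.

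Peak positions and peak reads in the lists were not equally usable. Peaks were numbered in gene order, and in long stretches of every list the input reads followed the length of a peak some rows away and not that of their own row. Reads were taken to stand on their own row where, in a window of 301 consecutive peak numbers, input reads correlated best with peak length without any displacement, at r of 0.25 or more. That held for 39.4% of the hPSC peaks, 37.2% of DE, 14.0% of PP, 10.9% of hILO, 8.30% of WT PP and 6.77% of A5-KO PP. At peaks shared by hPSC and DE, the log2 input reads per nucleotide of the pair correlated at r = 0.76 over 7334 pairs with reads on their own row in both lists, and at r = 0.31 over 11340 pairs with neither, as a description across peaks that share libraries. The log2 enrichment correlated at r = 0.67 and 0.15 in the same pairs. Among the members, all peaks of ARID1A and SMARCA4 in the 4 stages, of ARID1B in hPSC and DE, and of CHD4 in WT PP and A5-KO PP had reads on their own row. No peak of ARID2, SMARCA2, CHD2, CHD3, CHD7 or CHD8 did. For CHD7 the best displacement was 1 row in hPSC, 3 in PP and 6 in WT PP. Reads and enrichment are therefore given at named sites for the first set only. Positions were used for every member, although the lists had been filtered on these same values, and the effect of that on which peaks are listed was not tested.

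Labels were checked by peaks on marker genes. All 6 endoderm markers had a peak in DE, all 6 islet markers including INS, GCG and SST in hILO, and all 5 progenitor markers in WT PP and A5-KO PP. PP had 4 of 5, with none on PTF1A, and the 6 pluripotency markers all had a peak both in hPSC and in DE. ALKBH5 had 3 peaks in each stage, 4 for WT PP and 5 for A5-KO PP. None had reads on its own row, so this did not check the knockout.

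All 10 remodeler mRNAs carried peaks in the 4 stages, and most carried many. On member exons hPSC had 72 peaks, DE 64, PP 68, hILO 68, WT PP 71 and A5-KO PP 66. Counted by the rule, 8 of the 10 genes had at least 5 peaks in hPSC, where 17.1% of genes with a peak had as many. DE had 8 such members (14.4% of genes), PP 10 (14.8%), hILO 8 (13.9%), WT PP 7 (22.0%) and A5-KO PP 7 (20.1%). By peaks on member exons these counts were 8, 7, 9, 8, 7 and 6, since CHD4 in DE and PP and CHD2 in A5-KO PP then had 4. These are long mRNAs, of 5577 nt (SMARCA4) to 11606 nt (CHD7), and the background was not matched for length or level. The plot of nucleotides under peaks shows 3 broad sets: ARID1A, ARID1B and CHD7 at 2100 nt or more in each list, ARID2, CHD2 and CHD8 at 725 to 2975 nt, and SMARCA2, SMARCA4, CHD3 and CHD4 at 1950 nt or less.

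ARID1A, on chromosome 1 at 26693236 to 26782104, gives an mRNA of 20 exons whose last exon, 3082 nt long, holds the end of the coding sequence and the 3′ UTR. The number of peaks was 7 for hPSC, 7 for DE, 10 for PP, 2 for hILO, 13 for WT PP and 12 for A5-KO PP. The fall to 2 was one of position and not of the last exon, where peaks covered 58.4% of the exon for hPSC, 56.8% for DE, 59.2% for PP and 63.3% for hILO. In hILO this was 1 unbroken peak of 1950 nt. The peaks in exon 1, exon 3 and exon 18 that hPSC held were absent in hILO, and the 2 internal exons over 400 nt went from 48.6% covered at hPSC to 30.04% at DE, 20.7% at PP and 0% at hILO. WT PP had 62.5% of them under peaks and A5-KO PP 11.4%.

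ARID1B, on chromosome 6 at 156776020 to 157210779, is the paralog of ARID1A, and its last exon held 67.2% to 85.4% of its covered nucleotides in the stages, 45.5% for WT PP and 49.2% for A5-KO PP. This 4613-nt last exon, exon 20, was 41.7% covered for hPSC, 52.0% for DE, 45.5% for PP, 53.1% for hILO, 54.9% for WT PP and 51.6% for A5-KO PP. Its peaks numbered 10, 10, 8 and 7 over the stages in their order, 20 for WT PP and 15 for A5-KO PP. Exon 18, its 1 internal exon over 400 nt, was 35.1%, 39.4%, 20.3% and 64.9% covered over the stages, and 80.9% for WT PP and 39.4% for A5-KO PP. The rise in hILO was opposite in direction to the long internal exons of ARID1A. Exons that were neither the last nor internal and over 400 nt were 4.05% to 13.5% covered in the 4 stages, while WT PP had 48.7% of them covered and A5-KO PP 43.7%. Batch, RNA preparation and antibody moved together with that difference.

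ARID2, on chromosome 12 at 45729706 to 45908040, carried most of its peaks in 1 exon. Exon 15, with 2861 nt of coding sequence, held 77.9%, 73.2%, 76.1% and 60% of the covered mRNA over the 4 stages, 73.1% for WT PP and 74.7% for A5-KO PP, while it is 33.3% of the mRNA. Of its nucleotides, 58.5% were under peaks at hPSC, 45.4% at DE, 44.6% at PP and 26.2% at hILO, so that each stage listed less than the one before. In the second batch 76.0% and 67.2% were covered, in WT PP and A5-KO PP. The second site was the start of the 3′ UTR in exon 21, which had a peak in all 6 lists.

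In 5 of the 6 lists both ATPase mRNAs had fewer nucleotides under peaks than any of the 3 ARID mRNAs, and in hILO SMARCA2, with 1950 nt, had more than ARID2, with 1250 nt. SMARCA2, on chromosome 9 at 1980290 to 2193624, had 4, 3, 6 and 7 peaks over the stages, 2 for WT PP and 5 for A5-KO PP. The peaks covered 325 nt in DE, the least of the stages, and 1950 nt in hILO, the most. A site in exon 28, 708 nt before the stop codon, was in all 6 lists, and one centred on exon 10 was in the 4 stages and in neither list of the second batch. SMARCA4, on chromosome 19 at 10960932 to 11079426, had 4, 6, 5 and 4 peaks over the stages. They formed 3 sites, in exon 29, exon 30 and the last exon, and each was listed in all 4 stages. A further peak of 433 to 608 nt in each stage, before those sites in the gene, could not be resolved into exons and is not placed. The last exon, of 490 nt, was 73.9% covered in hPSC, DE and hILO and 63.7% in PP. In the second batch, WT PP listed no SMARCA4 peak and A5-KO PP listed 1, of 175 nt in the last exon. The lists hold only peaks past a threshold, so that an unlisted peak does not measure an unmethylated site.

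CHD2, CHD3 and CHD4 have no internal exon over 400 nt. CHD2, on chromosome 15 at 92886203 to 93027996, had 8, 4, 8 and 10 peaks over the stages, 5 for WT PP and 4 for A5-KO PP. In each list except A5-KO PP these include a peak not resolved into exons, which is not in the covered values. The 3625-nt last exon of CHD2 was covered to between 25.5% and 29.2% in 5 lists and to 0% in DE. In DE the gene kept its sites near exons 25 and 33. The DE peak merged into the site at exon 38 lay off the MANE Select exons. CHD3, on chromosome 17 at 7884796 to 7912760, had 8, 8, 6 and 7 peaks over the stages, 5 for WT PP and 3 for A5-KO PP. A peak in exon 3, near the start of the coding sequence, was in all 6 lists. Its last exon had 200 nt under peaks in hPSC and in DE, and none in the other 4 lists. CHD4, on chromosome 12 at 6570082 to 6614524, had 6, 4, 4 and 10 peaks over the stages, 3 for WT PP and 2 for A5-KO PP. The sites in exon 4 and exon 35 were in all 6 lists, and 5 of the 15 CHD4 sites were listed in hILO alone. Some of those 5 were centred off the MANE Select exons. The last exon of CHD4 held a peak in WT PP, of 50 nt, and in no other list.

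CHD7 and CHD8 again had long exons under their peaks. CHD7, on chromosome 8, has 4 internal exons over 400 nt, the longest of them exon 2 with 1839 nt. These were 62.2% covered for hPSC, 54.8% for DE, 37.1% for PP, 62.2% for hILO, 72.5% for WT PP and 59.98% for A5-KO PP. The gene had 10, 8, 7 and 8 peaks over the stages, 8 for WT PP and 10 for A5-KO PP, and PP alone lacked a coding site in exon 2 that the other 5 lists held. CHD8, on chromosome 14 at 21385194 to 21456126, had 9, 9, 5 and 8 peaks over the stages, 10 for WT PP and 8 for A5-KO PP. In each list except WT PP these include a peak not resolved into exons, which is not in the covered values. The 2 internal exons of CHD8 over 400 nt were 59.7% covered at hPSC, 42.8% at DE, 7.03% at PP and 39.99% at hILO. WT PP had 75.4% of them under peaks, and A5-KO PP 72.0%. The site around the CHD8 stop codon was in 5 lists, with 78.7% of the last exon covered for WT PP and 0% for A5-KO PP.

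Over the 10 mRNAs together, internal exons over 400 nt made up 13.4% of the sequence and were the most covered class in 5 of 6 lists. Peaks covered 52.5% of them for hPSC, 42.1% for DE, 28.1% for PP, 37.1% for hILO, 67.7% for WT PP and 51.8% for A5-KO PP. In PP the last exons, with 31.1%, were more covered. The same class in all coding genes with a peak was 37.0%, 28.6%, 28.7%, 29.8%, 49.1% and 41.0% covered in the same order of lists. The members were above it in 5 lists and below it in PP. Last exons of the members were 28.8% to 36.0% covered, against 10.8% to 19.0% over all coding genes, and other exons 7.65% to 12.9% against 5.05% to 8.77%.

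By the midpoint of the peak on the isoform with the longest coding sequence, 82.8% of placed member peaks lay in the coding sequence in hPSC (48 of 58, 95% Wilson interval 71.1% to 90.4%). DE had 86.3%, PP 84.5%, hILO 85.2%, WT PP 83.9% and A5-KO PP 86.0%. The share over all genes was 56.0%, 53.9%, 59.2%, 57.1%, 52.3% and 59.5%, below the lower bound for the members in each list. Coding sequence makes up most of each member mRNA, from 5487 of 9350 nt in CHD2 to 7746 of 8467 nt in CHD8. The background was not matched for this. Intervals cover counting error only. Between 6 and 9 member peaks a list lay in a 3′ UTR, and at most 2 in a 5′ UTR.

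Merging peaks that overlapped between lists gave 125 sites on exons of the 10 genes, some of them centred off the MANE Select exons. Of these, 19 were in all 6 lists, which is 15.2%, where 9.31% of the sites of all genes were. Another 60 sites, 48%, were in 1 list, where the share over all genes was 53.5%. CHD7 had 4 sites in all 6 lists, and ARID1B, ARID2 and CHD8 had 3 each. SMARCA4 had none of these, and its 3 sites were in all 4 stages. Of the sites listed in a population, those in no other list were 9 of 62 for hPSC (14.5%, where 16.0% of the sites of all genes were), 0 of 49 for DE (11.5%), 9 of 52 for PP (17.3%, 12.5%), 13 of 61 for hILO (21.3%, 17.0%), 19 of 59 for WT PP (32.2%, 28.6%) and 10 of 49 for A5-KO PP (20.4%, 41.6%). The background lay above the 95% Wilson interval of the members for DE, whose upper bound was 7.27%, and for A5-KO PP, at 33.6%, and inside it for the other 4 lists.

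The study asked how far methylation is passed on from one stage to the next, and took a peak as inherited when it overlapped a peak of the stage before by more than 50%. The study also asked for a minimum expression of the transcript, which was not applied here. Of the member peaks of DE, 52 of 64 were inherited from hPSC by exonic length, 81.2% (95% Wilson interval 70.0% to 88.9%), above the 64.7% over all peaks. With an overlap above 50% asked of both peaks the share was 56.2% (44.1% to 67.7%), and the 47.6% over all peaks was inside that interval. In PP 42 of 68 were inherited from DE, 61.8% (49.9% to 72.4%), where the share of all peaks was 56.9%. In hILO 33 of 68 were inherited from PP, 48.5% (37.1% to 60.2%), with 45.5% over all peaks. The last 2 shares were not distinguishable from the background at this number of peaks. In A5-KO PP, 50 of 66 peaks overlapped a WT PP peak in this way, 75.8% (64.2% to 84.5%), against 46.8% over all peaks, and with both peaks overlapped 47.0% (35.4% to 58.8%) against 30.7%.

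Enrichment, the log2 of IP over input reads as the caller normalised it, was followed at peaks with reads on their own row. In ARID1A the last exon was a single peak in hPSC, of 1700 nt with 2711 input and 36144 IP reads and a log2 enrichment of 2.20. DE had 2 main peaks there, at 1.77 and 2.23, and PP had 2, at 1.57 and 1.79. In hILO the single peak, with 5218 input and 21465 IP reads, stood at 2.08. The PP peaks differed from their DE partners by -0.19 and -0.44, and by 0.16 and -0.14 with the ratio of the deposited counts, centred on all shared pairs, so that the direction of the first depends on the scaling. A short peak further into the 3′ UTR read 1.53 in hPSC and 1.68 in DE, a direction that also depends on the scaling. The exon 3 peak of ARID1A read 1.82 in hPSC, 1.36 and 1.74 at the 2 peaks of DE, and 1.94 in PP. From the DE peak at 1.36 to PP the difference was 0.58, and 0.18 by the centred ratio of counts. That ratio showed no fall from hPSC to the same DE peak. The exon 18 peak was 1.58 in hPSC and 1.58 in DE, but higher in DE by the centred ratio of counts.

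In SMARCA4 the peak over the stop codon and 3′ UTR had 1792 input and 18467 IP reads at hPSC, 3748 and 10302 at DE, 1501 and 8176 at PP, and 3518 and 10937 at hILO. Its log2 enrichment was 1.86, 1.71, 1.48 and 1.59 in that order. By the ratio of the deposited counts, centred on all shared pairs, each stage differed from the one before by 0.07, 0.19 and -0.10, so that the order of the stages depends on the scaling. The exon 29 site read 1.11, 1.18, 1.40 and 0.83, and was lowest in hILO. From hPSC to DE the 3 shared SMARCA4 peaks were all lower, by -0.15 to -0.22, each beyond its 95% counting error. By the centred ratio of counts they differed by -0.07, 0.26 and 0.07, so that the direction of 2 of the 3 depends on the scaling. All pairs on their own row had a median of -0.10 there, and the 3 peaks differed by -0.05 to -0.07 from the median of all shared pairs of like GC content. From PP to hILO the exon 29 site differed by -0.57, outside the middle 80% of 1640 pairs (-0.45 to 0.44), although its span was 200 nt in PP and 150 nt in hILO.

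In ARID1B, of which hPSC and DE could be read, the last-exon peak was 2.43 in hPSC with 1090 input reads. DE had 2 main peaks there, at 1.85 and 2.37. The exon 18 peak was 1.96 in hPSC and 1.36 in DE, a difference of -0.60 with a standard error from counts of 0.17, and of -0.34 by the centred ratio of counts. In CHD4, the exon 4 peak stood at 2.28 for WT PP and at 2.39 for A5-KO PP, and the exon 35 peak 2.507 and 2.503. The differences, 0.11 with a standard error from counts of 0.064 and -0.0035 with one of 0.076, did not pass their 95% counting error. By the centred ratio of counts they were -0.32 and -0.31 and both passed it, so that this call depends on the scaling.

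Of the member pairs on their own row in both lists, numbering 12 for DE against hPSC, 8 for PP against DE, 6 for hILO against PP and 2 for A5-KO PP against WT PP, 0 were higher or lower by 1 or more on the log2 scale. Over all such pairs, 1.05% were higher and 1.25% lower by as much for DE against hPSC, 0.338% and 1.69% for PP against DE, 0.244% and 0.976% for hILO against PP, and 17.9% and 13.6% for A5-KO PP against WT PP. Beyond counting error were 6, 6, 5 and 0 member pairs in that order, where 23.2%, 35.1%, 33.8% and 68.4% of all such pairs were. By the centred ratio of counts 4, 5, 5 and 2 were, beside 26.3%, 25.9%, 48.1% and 63.4%. Whether a pair passes counting error depends on its reads, and the background was not matched for depth, so these counts do not rank the members. The member medians were -0.10, -0.18, 0.20 and 0.05, beside -0.10, -0.18, 0.0084 and 0.025 over all such pairs. By the centred ratio of counts they were 0.06, 0.19, -0.08 and -0.31, beside -0.02, -0.05, 0.13 and -0.24. With every shared pair, whatever its reads, the member medians were -0.13 (45 pairs), -0.07 (36), 0.11 (31) and 0.05 (42). These became 0.00094, 0.17, -0.0035 and -0.43 by the centred ratio of counts. The sign of each member median thus turned with the scaling, and no direction is read from them.

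Over the 10 genes together, member peaks held the m6A consensus more often than the other exon sequence of these genes in 5 of the 6 lists. Single genes differed. That sequence was taken from the exons of every annotated isoform, 172886 nt outside peaks in hPSC, and so reaches beyond the mRNAs described above. DRACH is 5 bases: A, G or T, then A or G, then A, C, and then A, C or T. GGAC followed by A, C or T is one form of it. DRACH sites per nucleotide in peaks over those outside gave a ratio of 1.17 for hPSC, 1.19 for DE, 1.23 for PP, 1.27 for hILO, 1.10 for WT PP and 1.18 for A5-KO PP. The counting interval of WT PP, 0.995 to 1.21, included 1. By gene, the ratio was above 1 in every list for ARID1A, ARID2, CHD2 and CHD7, while ARID1B had 0.83 to 1.05, CHD3 0.76 in hPSC and 0.69 in DE, CHD8 0.87 in PP, and SMARCA2 0.60 for WT PP and 0.65 for A5-KO PP. Over all genes the ratio was 1.23 to 1.29. GGAC alone, counted here whatever base followed it, gave 1.79 to 1.97 in the members and 1.47 to 1.69 over all genes. DRACH on the opposite strand gave 0.75 to 0.84 in the members. At least 1 DRACH site was in 85.7% to 90.8% of member peaks and in 88.8% to 92.8% of all peaks. GGAC with any base after it was in 53.8% to 60.9% and 50.8% to 57.3%. A match in these letters is no measured site.

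Partners of the same complexes had fewer peaks, with a median of 2 to 3 a gene for BAF and 1 to 3 for NuRD, where the members, counted by the rule and thus with the NOP2 peaks, had medians of 5 to 8. Of 25 BAF partners, 16 to 20 had a peak in each list and 4 to 11 had at least 5. BRD9 (10, 8, 8, 5, 6 and 8 peaks in the order of the lists), SMARCE1 and BICRA had the most over all lists. Neither ACTL6A nor ACTL6B, the actin-related subunits, had a peak in any list. Of 12 NuRD partners, 10 to 12 had a peak and 1 to 3 had at least 5, led by CDK2AP1, MBD3 and GATAD2A. The 5 other CHD genes had medians of 5, 6, 7, 4, 7 and 4 peaks in the order of the lists. Those of the members by the rule were 8, 7.5, 7, 7, 5 and 5.5, so high counts were not particular to the members. Among the other CHD genes, CHD9 had 11, 7, 8, 13, 14 and 16 peaks, and CHD5 had 3 in hPSC and none elsewhere. The lengths of these mRNAs were not compared. By the distance between peak counts over the 6 lists, the genes nearest to the member median by the rule, among 8939, were ATP5MG, ODF2L, MIR6716, PHLDB1 and YTHDC1, an m6A reader. The counts of MIR6716 and PHLDB1 were identical, and the ATP5MG peaks were given jointly to a second gene, so that the pattern may belong to either.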

How the data were processed

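Reads had been trimmed (fastp) and aligned to GRCh38 (HISAT2) by the authors, who called peaks with exomePeak2, 1 list a population. The deposited columns used were pooled input and IP read counts, log2 fold change and p-value, but not the adjusted p. The methods give IP/input of at least 1.5 and a p-value threshold of 1e-05, while the deposited lists held 36.8% of peaks at or above it. Reads in peaks ranged from 6987612 to 28463998 (input) and 30723097 to 79822815 (IP) a list.

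Python 3.11.15, pandas 2.3.3, numpy 2.4.6 and scipy 1.17.1 were used with GENCODE 44. Overlap was by exonic length on the same strand. Spans that could not be resolved into exons (1.91% of peaks) got no placement. Counting error added 0.5 to each count. The check of read placement, chosen after seeing the data, moved reads by -20 to 60 rows and was tested on simulated data, as were the overlaps. Extreme peaks, marker reads and enrichment of partner genes were not reported, since most of those reads were not on their own row. The 10 members are named with values; partner lists are given by counts, with the genes richest in peaks. Members and lists were chosen with earlier results of these data known. No column of any other sample was found.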

Additional observations from a re-analysis of the deposited data

How the results depend on the processing

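No paired analysis was possible because each population has 1 list over its libraries. Leaving out replicates was not run, as it needs values by library. Reads, enrichment and p-values of most peaks did not stand on their own row, so the thresholds on them select in part by other peaks' values. Peak counts (72, 64, 68, 68, 71 and 66 in hPSC, DE, PP, hILO, WT PP and A5-KO PP) fell to 43, 36, 34 and 27 in the 4 stages at IP/input of at least 3, to 36, 38, 29, 45, 28 and 23 at p below 1e-10, to 40 and 43 for WT PP and A5-KO PP at p below 1e-05, to 42 for A5-KO PP at 50 or more input reads, and to 45, 41 and 36 in hPSC, DE and hILO with peaks given to 1 gene alone. Inherited shares fell to 56.2%, 42.6%, 36.8% and 47.0% (DE, PP, hILO, A5-KO PP) with reciprocal overlap above 50%, and rose to 64.7% in hILO with any overlap. Coding shares by any overlap were 90.6% in hPSC, 91.9% in PP and 93.0% in hILO. GGAC with any base after it, in place of DRACH, gave 1.92, 1.80, 1.97, 1.90, 1.85 and 1.79, and the opposite strand 0.79, 0.84, 0.83, 0.82, 0.75 and 0.82. The DE to PP median of -0.07 became 0.17 with the ratio of counts, 0.10 within GC bins and 0.04 less the median of all pairs. The A5-KO PP minus WT PP median of 0.05 became -0.43 with at least 50 input reads a peak, -0.43 with the ratio of counts, -0.25 within GC bins and -0.21 less the median of all pairs. With the ratio of counts the hPSC to DE and PP to hILO medians also turned, to 0.00094 and -0.0035. The cause was not tested. With these medians other than the 0.17 and 0.10 counted in, 64 planned and 24 added settings, which include all peaks of the rule, the MANE isoform and pairs with reads on their own row (these 3 chosen after seeing the data), left peak counts within 1.5 times and other values within the 95% interval of the reported value, which for each of the 4 medians includes both signs.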
